A study of Oryctolagus cuniculus with 8 samples.

Results

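Rabbit induced pluripotent stem (iPS) cells were compared with rabbit embryonic stem (ES) cells at early and at late passage, using 6 of the 8 arrays of the study. Side 1 held the 4 iPS arrays, which come from 2 lines, 1 made from liver cells (iPS-L1, at passages 7 and 23) and 1 made from stomach cells (iPS-S1, at passages 6 and 22). Side 2 held the 2 ES arrays, from the lines rdES4 and rdES2-1, whose passage is not given in the labels. All cells came from the Dutch rabbit, and ES and iPS cells shared the same stem cell medium; the 2 remaining arrays held cultured liver and stomach cells, grown in a somatic cell medium, whose levels are quoted only as values. Which reprogramming factors were used is not stated in the labels, nor do they say that any line is more than 1 clone or that early and late cells were grown in parallel. The line was therefore the unit, with 2 iPS lines against 2 ES lines, so each p-value reflects the spread among these few samples alone, which may be technical in part. Each sample was hybridised once, so the number of arrays limits the precision.

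ES cells are derived from the early embryo, while iPS cells are body cells returned to a similar state by reprogramming factors. Both kinds depend on a core of transcription factors, of which POU5F1 (OCT4) is the best known. iPS lines can retain transcripts of the cell of origin for some passages, and an iPS line is commonly compared with ES lines both early and late for this reason. Genes of fibroblasts and smooth muscle, inflammation and liver metabolism are the usual candidates when cultured body cells are the source.

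Levels are log2 signals relative to the 75th percentile of each array, so that 0 is that percentile, and differences are log2 values of iPS minus ES cells. On the 6 arrays the 75th percentile ranged from 273.8 to 341.5 in signal units, and 62.39% to 64.66% of probes exceeded background clearly. On these arrays a probe well above background had a level of at least -5.54 to -5.36. A total of 27749 probes were tested, and 479 of the 680 genes with a symbol were among them, each represented by its brightest probe. The other 201 named genes were too dim on the ES and iPS arrays to be tested or carried an outlier mark, and most probes carry no symbol here. The slides were shared unequally: rdES4 and both arrays of iPS-L1 were on slide 1 and scanned on day 1, rdES2-1 was on slide 2, and both arrays of iPS-S1 were on slide 3, the latter 2 slides being scanned on day 2.

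Of 3 pluripotency markers measured, POU5F1 and PODXL were bright on all 6 arrays. POU5F1 had levels of 7.14 and 6.69 in rdES4 and rdES2-1, of 7.62 and 7.57 in the early iPS-L1 and iPS-S1 arrays and of 7.08 and 7.12 in the late ones, against -3.63 in liver and -3.46 in stomach cells. The early iPS arrays were the highest and the late ones overlapped the ES arrays, and the difference of 0.43 ± 0.19 (SE, 2 lines against 2) had an adjusted p of 0.484. PODXL, a surface sialomucin abundant on pluripotent cells, was at 7.63 and 7.31 in ES cells and between 7.29 and 7.32 on the 4 iPS arrays. Its difference of -0.16 ± 0.16 had an adjusted p of 0.713, with a 95% interval of -0.58 to 0.26. KLF5, a factor of the pluripotent state, was dim, at -4.39 and -4.72 in ES cells and between -5.16 and -3.58 in iPS cells, so that the groups overlapped. The T cell marker CD3E was well above background on 1 of the 6 arrays, an ES array, and the liver marker ALB and the gastric marker ATP4B on none of them. Other markers of pluripotency are not analysed here by name.

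ES and iPS arrays differed by about as much as iPS arrays of different passages did. Across the tested probes, 3.53% differed at least 2-fold between the ES lines. The figure was 4.51% between the early iPS lines and 2.61% between the late iPS lines. Within a line, 5.62% of the probes differed at least 2-fold between passages 7 and 23 of iPS-L1, and 5.26% between passages 6 and 22 of iPS-S1. ES arrays differed from early iPS arrays at 5.89% to 8.42% of the probes and from late iPS arrays at 3.1% to 6.93%. The late iPS-L1 array and rdES2-1, which were scanned on different days, were thus closer to each other than the ES lines were. These are descriptions of array pairs, since several pairs share an array.

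**Figure D1:**
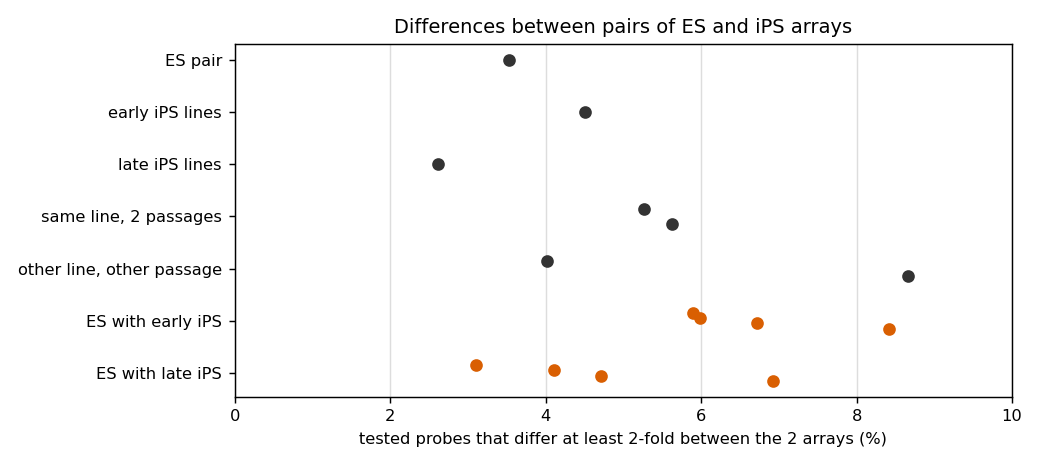
Share of tested probes that differ at least 2-fold between 2 arrays (x axis, %), for each kind of array pair (y axis); each point is 1 pair, and pairs of an ES with an iPS array are in orange. The late iPS lines form the closest pair at 2.61%, and the pairs of ES with late iPS arrays (3.1% to 6.93%) lie on both sides of the ES pair at 3.53%.

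When iPS lines, averaged over both passages, were tested against ES lines, no probe passed an adjusted p of 0.05 (0 of 27749, 0%; limma with Benjamini-Hochberg adjustment). The smallest adjusted p was 0.16, and 3133 probes (11.3%) had an unadjusted p under 0.05, of which 818 were higher (2.95%) and 2315 lower (8.34%) in iPS cells. At least a 2-fold difference was seen at 707 probes, 2.55% of those tested. At the early passages 22 probes passed the adjusted threshold (0.0793%), 13 higher (0.0468%) and 9 lower (0.0324%) than in ES cells. At the late passages 3 probes passed (0.0108%), 1 higher (0.0036%) and 2 lower (0.00721%). Without adjustment 4353 probes passed early (15.7%; 6.66% higher and 9.02% lower) and 2802 late (10.1%; 1.85% higher and 8.25% lower). No probe passed in all 3 fits, so by this test no difference held at both passages. The early count was between 0 and 6 when any 1 of the 6 arrays was left out, the late count was between 0 and 5, and both were 0 with the scan day as a block. At 14 of the 22 early calls and at all 3 late calls 1 of the 2 groups compared was not well above background on either array. The 3 late calls and most of the 14 early ones entered the test only through the group where they were high. The exceptions were A_04_P047498, A_04_P009821, A_04_P002427 and A_04_P087277, which were well above background on the late arrays as well. The p-values of all these calls rest in part on the spread of signals at background. The early and late comparisons share their ES arrays, so their values are given side by side and are not independent.

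The 2 probes that passed at both passages were lower in iPS cells, and neither has a symbol here. Probe A_04_P056717, designed to an Ensembl transcript, was at -2.88 and -3.33 in rdES4 and rdES2-1, at -7.68 and -7.42 in early iPS-L1 and iPS-S1, and at -7.54 and -7.18 in late ones. It was well above background in both ES lines and on no iPS array, and its level was at least 4.79-fold lower at the early (adjusted p = 0.0289) and at least 4.91-fold lower at the late passages (adjusted p = 0.0397). Probe A_04_P022001 was at -4.69 and -5.01 in ES cells, at -7.68 and -7.59 in early and at -7.68 and -7.65 in late iPS cells. It too was not well above background on any iPS array, and was at least 1.42-fold lower early (adjusted p = 0.0289) and at least 1.46-fold lower late (adjusted p = 0.0397). In the fit of line means both had an adjusted p of 0.16, so neither call holds there. With the normexp background correction their early differences were -0.84 (adjusted p = 0.061) and -0.45 (adjusted p = 0.261), and neither passed at either passage. A fold given as at least sets the bright group against the lowest signal well above background on the dim arrays.

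For the other differences the arrays themselves show how far both passages went the same way. Taking each passage alone, 1165 probes (4.2%) had no overlap with ES cells and at least a 2-fold difference early, 509 higher (1.83%) and 656 lower (2.36%), and 671 (2.42%) did late, 151 higher (0.544%) and 520 lower (1.87%). All 4 iPS arrays lay above both ES arrays at 2989 probes (10.8%) and below both at 3781 (13.6%). Among the 479 named genes the counts were 49 above (10.2%) and 83 below (17.3%). Without overlap and at least 2-fold at both passages, 44 probes were higher (0.159%) and 175 lower (0.631%). At 24 of the 44 the ES arrays were not well above background, and at 77 of the 175 no iPS array was. Liver and stomach cells were both above all iPS arrays at 13 of the 44, and both below the ES arrays at 10 of them. Of the 175 lower probes, both somatic arrays were below all iPS arrays at 19 and above both ES arrays at 33. Over all tested probes, 32.6% had both somatic arrays above all 6 ES and iPS arrays. The 13 and the 33 meet that same condition, and neither exceeds that share of its group. For the 10 and the 19 the share over all probes was not computed, so they are values only. The difference was smaller late than early at 28 of the 44 and at 90 of the 175. By their brightest probe, 8 named genes met this description, 4 higher (0.835%) and 4 lower (0.835%), and none of the 8 passed the test.

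ACTA2, the actin of smooth muscle and myofibroblasts, had levels of -2.54 and -1.3 in rdES4 and rdES2-1, of -0.07 and 0.79 in early iPS-L1 and iPS-S1, and of 0.28 and 0.76 in late ones. All 4 iPS arrays were above both ES arrays, the passages of a line differed by less than the ES lines did, and liver (7.02) and stomach cells (5.13) were far above all of them. The difference was 2.36 ± 0.49 (SE, 2 lines against 2), or 5.12-fold, with an adjusted p of 0.309, and it was 2.64 for iPS-L1 against rdES4 within slide 1 and 2.07 for iPS-S1 against rdES2-1 within scan day 2. The other smooth muscle genes measured were CALD1 (caldesmon), whose late iPS levels of 4.44 and 4.47 fell between the ES levels of 4.65 and 4.07, and TPM1 (tropomyosin), with a difference of -0.12. Over the 3 genes the mean level was 1.83 and 1.92 on the ES arrays, 2.55 to 2.94 on the iPS arrays, and 6.16 and 4.9 in liver and stomach cells. Of the 3 genes, only ACTA2 had all 4 iPS arrays above both ES arrays, so the mean mostly reflects ACTA2. Whether a share of other cells in the iPS cultures plays a part was not tested, and more cells of a type cannot be told apart from more RNA per cell in these bulk samples.

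PON3, a paraoxonase of the liver, was at -6.47 and -5.65 in ES cells, at -3.69 and -3.63 in early and at -5.05 and -3.88 in late iPS cells. Neither ES line was well above background, and all 4 iPS arrays lay higher. The level was at least 3.5-fold higher early and at least 2-fold higher late, with an adjusted p of 0.299 for the line means. FMO1, a flavin monooxygenase of drug metabolism, was at -5.94 and -5.86 in ES cells, at -4.7 and -4.52 in early and at -4.72 and -3.24 in late iPS cells. The 4 iPS arrays were again apart from the ES arrays, which were below the background limit, and liver cells (-1.95) were above them while stomach cells (-6.84) were not. The level was at least 1.81-fold higher early and at least 2.8-fold higher late, with an adjusted p of 0.301. HBB2, a beta globin, was at -4.99 and -4.0 in ES cells, at -1.59 and -2.86 in early and at -3.16 and -3.78 in late iPS cells. The groups did not overlap, but late iPS-S1 exceeded rdES2-1 by little, and the difference of 1.65 ± 0.48 had an adjusted p of 0.372. Of the other blood markers, HBA (alpha globin) was between -2.68 and -2.27 on the 6 arrays, with a difference of -0.14, and CD14 of monocytes had a difference of 0.03.

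Lower in iPS cells at both passages were 4 genes. NPY, the precursor of neuropeptide Y, was at -1.92 and -1.89 in ES cells, at -2.93 and -4.38 in early and at -2.59 and -3.62 in late iPS cells. The ES lines were nearly equal, iPS-S1 was the lower line at both passages, and liver (3.49) and stomach cells (2.2) lay above every ES and iPS array. The difference of -1.47 ± 0.43 had an adjusted p of 0.376, and the 5 probes of the gene had the same sign. SLC47A2, a transporter that exports organic cations and toxins, was at -2.86 and -3.63 in ES cells, at -4.34 and -4.87 in early and at -4.35 and -4.92 in late iPS cells. Each iPS line had almost the same level at both passages, and the difference of -1.37 ± 0.34 had an adjusted p of 0.34. MMP3 (stromelysin, a matrix protease) was at -0.67 and -1.41 in ES cells, at -2.05 and -2.5 in early and at -2.07 and -2.47 in late iPS cells. This pattern belongs to the brighter of 2 probes; the other probe differed from ES by 4.04 early and by -0.19 late, so the gene's direction is uncertain. GNRHR, the receptor for gonadotropin-releasing hormone, was at -5.1 and -4.62 in ES cells and between -7.33 and -5.55 in iPS cells, of which no array was well above background. It was at least 1.41-fold lower early and at least 1.45-fold lower late, with an adjusted p of 0.314.

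**Figure D2:**
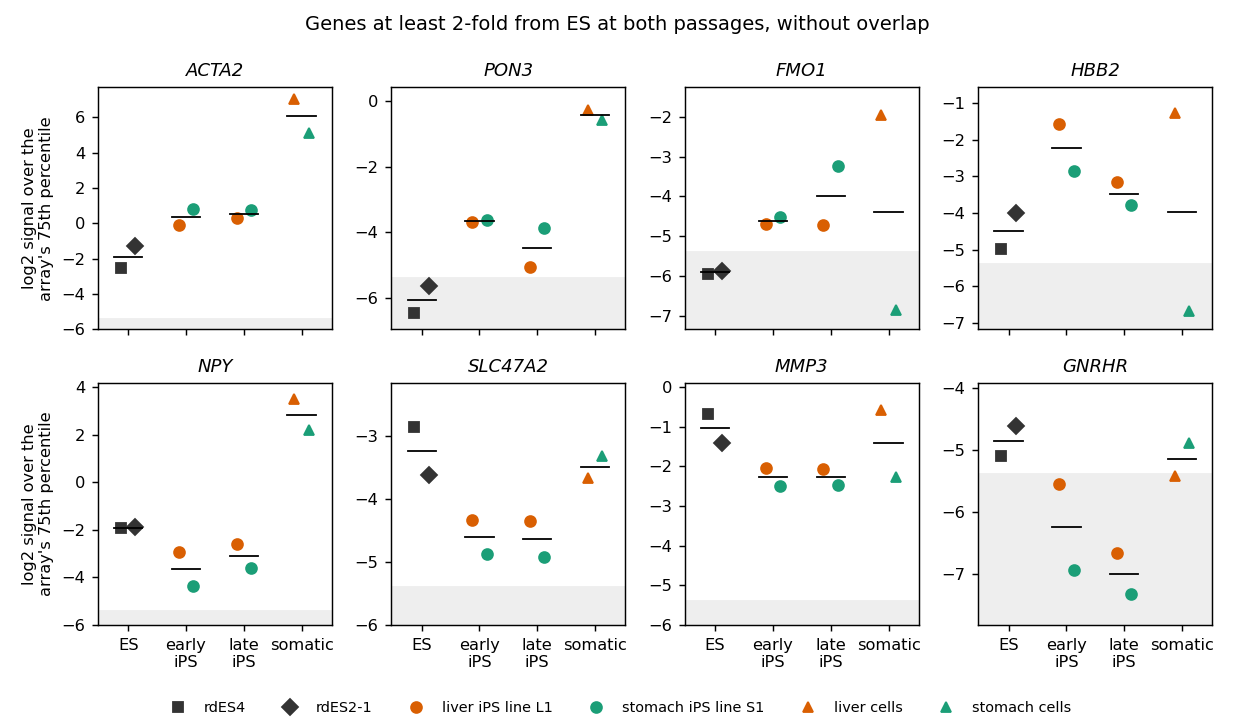
Levels of the 8 named genes that differ at least 2-fold from ES cells at both passages without overlap (y axis, log2 signal over the 75th percentile of the array; x axis, group). Each point is 1 array, lines are means of the 2 arrays of a group, and the shading marks levels of probes near or below background. The upper panels show the 4 genes higher in iPS cells and the lower panels the 4 genes lower, for MMP3 by 1 of its 2 probes.

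Other genes lay apart from ES cells on all 4 iPS arrays, with differences under 2-fold at 1 or both passages. TGFB2, a transforming growth factor, was at -2.62 and -2.5 in ES cells, at -1.53 and -2.04 in early and at -1.59 and -0.61 in late iPS cells. All 4 iPS arrays lay above the ES arrays, and the difference was 1.06 within slide 1 and 1.18 within scan day 2 (line means 1.12 ± 0.14, adjusted p = 0.288). BDKRB1, a bradykinin receptor, was at -3.19 and -2.92 in ES cells and between -2.36 and -1.71 in iPS cells, with differences of 0.97 early and 1.02 late (adjusted p = 0.299 for the line means). S100A11, a calcium-binding protein, was at 1.29 and 1.08 in ES cells and between 1.48 and 2.08 in iPS cells, with differences of 0.69 early and 0.59 late (adjusted p = 0.314). These 3 genes were all at higher levels in liver and stomach cells than on any ES or iPS array.

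TF, the iron carrier transferrin, lay lower in iPS cells at both passages. Its levels were 2.09 and 1.57 in rdES4 and rdES2-1, 0.29 and 0.4 in early and 1.0 and 1.24 in late iPS-L1 and iPS-S1. The late arrays lay between the early and the ES arrays, and liver (-1.62) and stomach cells (-2.83) were lower still. The difference was -1.49 ± 0.21 early (adjusted p = 0.132) and -0.71 ± 0.21 late (adjusted p = 0.362), with the same sign at its 5 probes. Of the 5 measured genes of hepatocytes 3 were lower and 2 higher; HP (haptoglobin, which binds free hemoglobin) was at -0.73 and -1.46 in ES cells, at 0.17 and 0.5 in early and at -1.65 and -1.93 in late iPS cells, so that the early arrays lay above and the late ones below the ES lines. KAP6.1.1, a keratin-associated protein, was at 0.14 and -0.03 in ES cells and between -0.91 and -0.7 in iPS cells, with a late minus early value of -0.18 (adjusted p = 0.299 for the line means). CACNB1 and CACNA1A, subunits of voltage-gated calcium channels, had differences of -0.67 ± 0.12 and -0.88 ± 0.19 (adjusted p of 0.299 and 0.314), with all 4 iPS arrays below both ES arrays for each gene. CXCL8, the neutrophil chemokine interleukin 8, was at -2.38 and -2.52 in ES cells, at -3.0 and -3.53 in early and at -3.55 and -4.28 in late iPS cells. Its difference was -0.81 early and -1.46 late, and the change between passages had an adjusted p of 0.472.

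Some named genes passed the test at 1 passage and not at the other, and the change between passages was tested for itself. CAV1, the membrane coat protein of caveolae, which fibroblasts make in quantity, was at -3.83 and -4.01 in ES cells, at 0.36 and -0.31 in early iPS-L1 and iPS-S1 and at -2.67 and -3.57 in late ones, against 4.76 in liver and 4.13 in stomach cells. The early arrays lay far above the ES arrays and below the somatic ones, and the late arrays lay just above the ES arrays. By this brightest probe the difference was 3.95 ± 0.36 early (adjusted p = 0.072) and 0.8 ± 0.36 late (adjusted p = 0.543). Of the 7 probes of the gene, 3 passed early, with adjusted p between 0.0289 and 0.0496, and none passed late, where the 7 differences ranged from -0.45 to 1.76. By probe A_04_P002427, which passed with a difference of 4.61 ± 0.31 (adjusted p = 0.0295), early iPS cells were at least 18-fold higher than ES cells, which were not well above background by this probe. With normexp this probe passed with a difference of 1.47 (adjusted p = 0.00422), while the other 2 did not, with differences of 0.26 and 0.35. These were the 3 probes with a symbol among the 22 that passed early.

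DCN, the matrix proteoglycan decorin of connective tissue, showed the reverse order. It was at -7.67 and -7.84 in ES cells and at -7.67 and -7.64 in early iPS cells, none of them well above background, and at -3.59 and -3.63 in late iPS-L1 and iPS-S1. The late arrays stood apart, at least 3.62-fold above ES cells (adjusted p = 0.00503), and liver (1.39) and stomach cells (2.31) were higher still. The DCN probe entered the test only through the late arrays, where it was high, and its p-value rests in part on signals at background. Without the filter on dim probes its adjusted p was 0.0502. With the normexp background correction the late difference was 0.49 (adjusted p = 0.468). VCAM1, an adhesion molecule for leukocytes, was at -7.62 and -7.79 in ES cells, at -7.66 and -7.62 in early and at -3.98 and -3.2 in late iPS cells. The late arrays again stood apart, at least 3.68-fold above ES cells, with an adjusted p of 0.0587 that missed the threshold. This probe too was tested only through the late arrays. Of the 16 genes of inflammation 7 were measured, 3 of them higher and 4 lower in iPS cells; IL6, a cytokine, and SAA3, an acute phase protein, were well above background on none of the 6 arrays. GRO-A, a chemokine, was at -5.56 and -6.06 in ES cells, at -4.11 and -3.8 in early and at -5.54 and -6.29 in late iPS cells, against 5.78 and 5.95 in liver and stomach cells, so that the early arrays alone lay above background. Averaged over the passages, DCN and VCAM1 had adjusted p of 0.16 and 0.249.

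The change of the difference with passage was tested as late minus early iPS cells, in which 8 probes passed (0.0288%), 2 higher (0.00721%) and 6 lower (0.0216%) late; without adjustment 3249 passed (11.7%), 1321 higher (4.76%) and 1928 lower (6.95%). At all 8 probes 1 of the passages was not well above background on either array, so only a bound can be given for them. The 2 higher were DCN, at least 3.37-fold (adjusted p = 0.00577), and VCAM1, at least 3.42-fold (adjusted p = 0.0481). Among the 6 lower was 1 probe of CAV1, A_04_P004337, at least 2.22-fold lower (adjusted p = 0.0429), while the brightest probe of CAV1 had an adjusted p of 0.159. The called probes of DCN, VCAM1 and CAV1 entered the test only through the passage where they were high. With normexp 1 of the 8 passed, and without the filter on dim probes 0 passed. With the line as a block, which pairs the passages of a line, 0 probes passed and the smallest adjusted p was 0.107. MGP (matrix Gla protein) was at -1.91 and -2.95 in ES cells, at -6.01 and -4.37 in early and at -1.31 and -0.98 in late iPS cells, a late minus early value of 4.04 ± 0.61 with an adjusted p of 0.254, and its 9 probes did not all have the same sign in line means. The 5 genes of the fibroblast and mesenchyme list that were measured, CAV1, DCN, MGP, TIMP1 and MMP2, thus took different courses: TIMP1, an inhibitor of matrix proteases, had a difference of 0.25 and MMP2, a gelatinase, one of -0.04. Their mean level was -1.96 and -2.29 on the ES arrays, -1.87 and -1.74 early, -0.76 and -0.95 late, and 4.61 and 4.59 in liver and stomach cells; its part in the results was not tested.

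**Figure D3:**
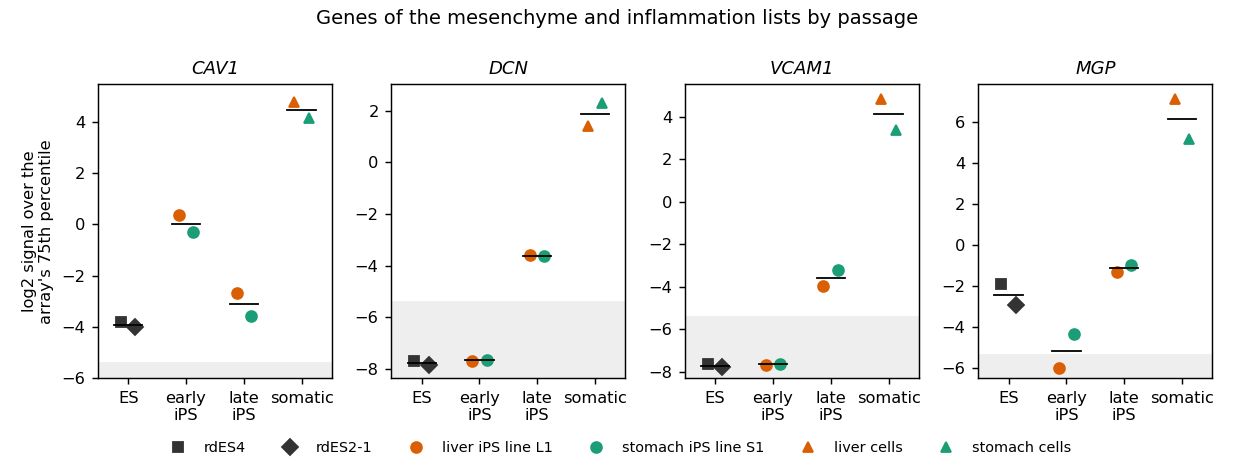
Levels of CAV1, DCN, VCAM1 and MGP on the 8 arrays (y axis, log2 signal over the 75th percentile of the array; x axis, group); each point is 1 array, lines are means of the 2 arrays of a group, and the shading marks levels of probes near or below background. CAV1 is highest among ES and iPS arrays at early passage, while DCN and VCAM1 leave the background at late passage, and all 4 genes are highest in the somatic cells.

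Among the probes without a symbol, 5 probes to a single expressed sequence tag passed at the early passages, with differences of 2.61 to 2.73 and adjusted p between 0.0289 and 0.0299. One of them, A_04_P017003, was at -0.24 and 0.02 in ES cells, at 2.71 and 2.43 in early and at 0.51 and 0.37 in late iPS cells, against 5.13 and 7.03 in liver and stomach cells. The late arrays remained above both ES arrays, with late differences of 0.46 to 0.6 over the 5 probes. Probe A_04_P087277 was at -6.3 and -6.26 in ES cells, at -4.24 and -4.31 in early and at -4.94 and -4.57 in late iPS cells, and was at least 2.28-fold higher early (adjusted p = 0.0461) and at least 1.64-fold higher late (adjusted p = 0.172). Of the 13 probes higher early, 10 had both somatic arrays above all 6 ES and iPS arrays, as did 32.6% of all tested probes. These 10 include the 5 probes of the tag and the 3 called probes of CAV1. They are thus not 10 separate transcripts, and the count is not set against that share. Of all 22 early calls, 18 had the late arrays on the same side of both ES arrays, and 8 of these at least 2-fold from them. Over all tested probes, 24.4% had all 4 iPS arrays on 1 side of both ES arrays. At 2.42% of them the late arrays were at least 2-fold from ES cells without overlap, in either direction. The 22 early calls include the 5 probes of the tag and 3 of CAV1, so they too are not separate transcripts. The early calls were selected against the same ES arrays, so these counts are not independent of that selection. These probes were singled out after their values were seen.

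The size and sign of the small differences followed the level of the probe. Among probes with a mean level of at most -5, the median difference was -0.31 and 64.1% were lower in iPS cells, whereas above a level of 4 the median was 0.06 and 33.1% were lower. All 4 iPS arrays lay below both ES arrays at 27.4% of the dimmest and 5.99% of the brightest probes. The trend was the same for iPS-L1 against rdES4 (-0.28 to 0.06) and for iPS-S1 against rdES2-1 (-0.33 to 0.06), and it was smaller with quantile normalization (-0.13 to 0.02). Between the ES lines themselves, rdES2-1 minus rdES4 had medians of -0.09 in the dimmest and 0.04 in the brightest band. The part of this trend in the gene groups was not tested, and the median levels of some are given beside them. Of other groups described below, sodium and chloride channels had a median level of -2.72, potassium channels -2.92, and G protein coupled receptors -2.32. It was 4.57 for glycolysis, 0.55 for protein kinases and 1.24 for protein phosphatases.

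**Figure D4:**
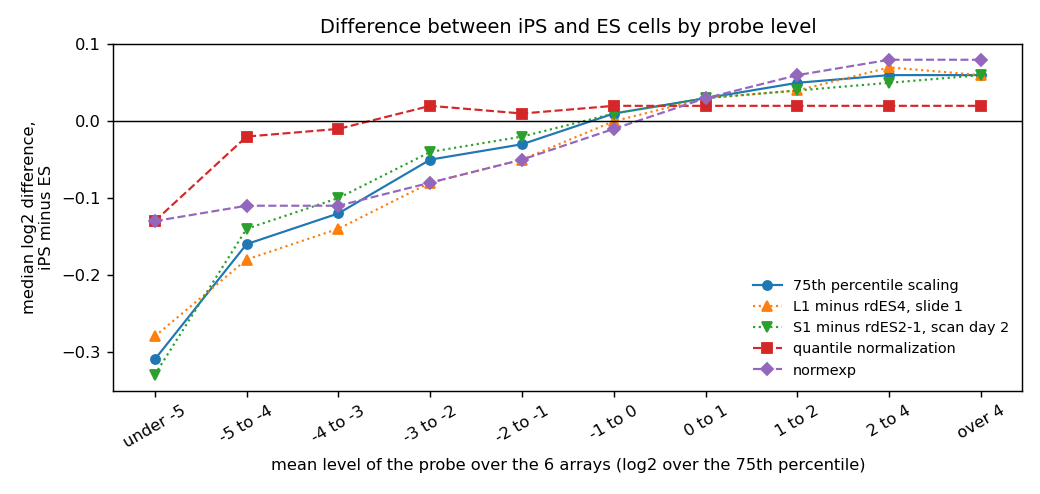
Median log2 difference of iPS minus ES cells (y axis) in bands of the mean probe level over the 6 arrays (x axis, log2 over the 75th percentile), for the line means, for each iPS line against 1 ES line, and for 2 other ways to process the signals. The median goes from -0.31 in the dimmest band to 0.06 in the brightest, and with quantile normalization from -0.13 to 0.02.

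No member of any of the 31 gene lists with a measured gene passed the test of line means, and the lists are described by their counts. Across all 479 named genes, 264 (55.1%) had a lower mean in iPS cells, with a median difference of -0.04 and a median level of -1.22; without scaling between arrays 191 were lower and 288 higher (median 0.1), so the majority turned. Of the 39 solute carriers measured, membrane transporters of small molecules, 34 were lower and 5 higher, with a median difference of -0.24 at a median level of -2.31. In 9 of them all 4 iPS arrays lay below both ES arrays, and in none above. The share below was 17.3% over all named genes and 16.8% over probes with levels from -3 to -2. Besides SLC47A2 the 9 included SLC36A1, an amino acid transporter of lysosomes (-0.52 ± 0.13, adjusted p = 0.347). Without scaling, which moved the median of all probes to 0.135, 30 of the 39 were lower. At the early passages 29 of the 39 were lower and at the late passages 34, where 253 and 280 of the 479 named genes were. SLC3A1, a subunit of the cystine transporter, was the exception with the largest difference, at -4.64 and -4.67 in ES cells, at -3.06 and -2.52 in early and at -4.78 and -4.25 in late iPS cells, so that the early arrays alone lay clearly higher.

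All 10 measured genes of calcium channels and calcium release were lower in line means, with a median difference of -0.39 at a median level of -2.94. With quantile normalization or no scaling 9 of the 10 were. For iPS-L1 against rdES4 8 were lower, and for iPS-S1 against rdES2-1 also 8. At the early passages 8 of the 10 were lower (median -0.16), and at the late passages all 10 (median -0.36). In 2 of them, CACNB1 and CACNA1A, the arrays did not overlap, where 17.3% of all named genes lay below both ES arrays on all iPS arrays. Of 9 sodium and chloride channels 7 were lower (median -0.29), among them SCNN1A, a subunit of the epithelial sodium channel, at -2.28 and -2.44 in ES cells and between -3.04 and -2.79 in iPS cells (-0.53 ± 0.13, adjusted p = 0.342). Without scaling 5 of these 9 were lower. Of 11 potassium channels 7 were lower (median -0.25); KCNJ8, which forms ATP-sensitive channels, varied most, at -4.46 and -1.93 in the ES lines, -7.67 and -5.79 early and -3.48 and -3.4 late, and its groups overlapped.

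Of 13 genes of xenobiotic metabolism 10 were lower (median -0.3, median level -2.68). In 7 of the 13 the 4 iPS arrays lay below both ES arrays and in 2 above, against 17.3% below and 10.2% above over all named genes. FMO5 was at -3.92 and -4.14 in ES cells and between -4.81 and -4.56 in iPS cells (-0.7 ± 0.14, adjusted p = 0.307; its other probe had the opposite sign), while FMO1 of the same family was higher as described above. SULT4A1, a sulfotransferase, was at 3.01 and 2.89 in ES cells and between 2.24 and 2.64 in iPS cells, and CYP4B1, a cytochrome P450, differed by -0.42 ± 0.12 (adjusted p of 0.367 and 0.379). G protein coupled receptors and their ligands included 9 of 13 lower (median -0.21). HRH3, a histamine receptor, and NPY6R, a receptor for neuropeptide Y, lay below both ES arrays on all iPS arrays, by -0.48 and -0.84.

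Of 16 genes of translation 11 were higher, with a median difference of 0.06 at a median level of 4.62, and 15 were without scaling; EIF2B5, a subunit of an initiation factor, was at -1.34 and -1.39 in ES cells and between -1.08 and -0.86 in iPS cells (0.41 ± 0.12, adjusted p = 0.388). Of 7 genes of glycolysis 5 were higher (median 0.06), but 3 with quantile normalization. ALDOA (aldolase) was at 3.98 and 4.32 in ES cells and between 4.47 and 4.74 in iPS cells (0.45 ± 0.17, adjusted p = 0.454). Of 18 protein kinases 8 were higher and 10 lower, and of 12 protein phosphatases 6 and 6; without scaling 13 of the kinases and 11 of the phosphatases were higher. Among genes of cell death and the cell cycle, FAS, a death receptor, was at -2.24 and -2.2 in ES cells and between -1.83 and -0.54 in iPS cells (0.78 ± 0.2, adjusted p = 0.347). Reference genes stayed close, with differences of -0.06 for ACTB, -0.04 for GAPDH, 0.17 for HPRT1 and 0.17 for PPIA.

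**Figure D5:**
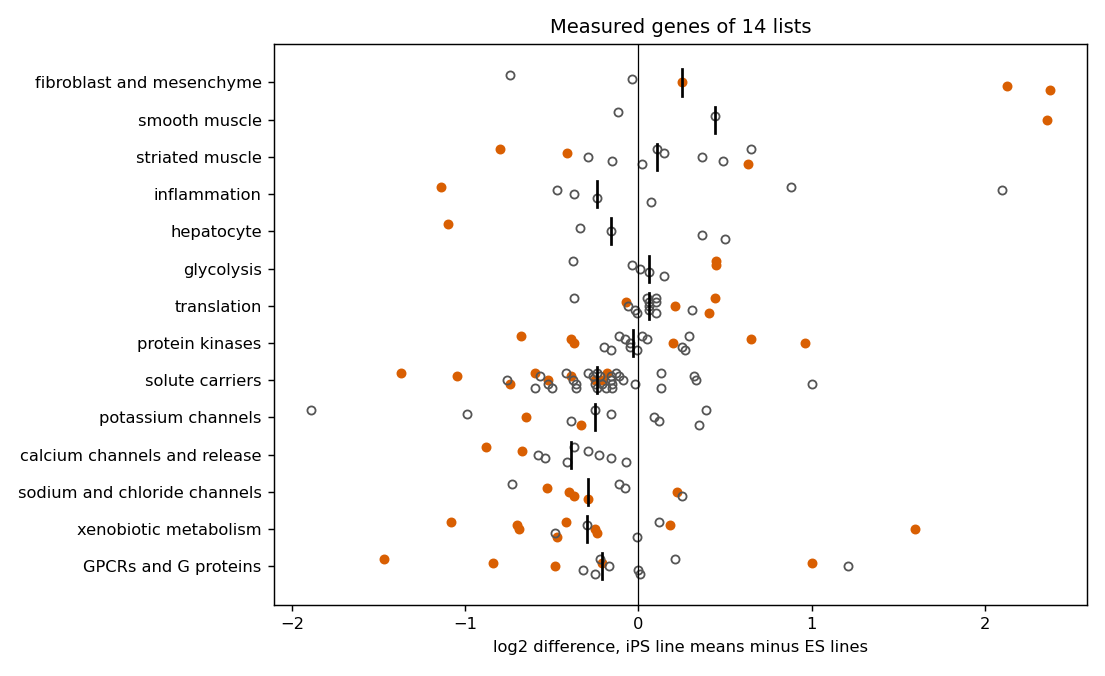
Log2 difference of iPS line means minus ES lines (x axis) for every measured gene of 14 lists (y axis). Filled points are genes whose 4 iPS arrays all lie on 1 side of both ES arrays, open points are genes with overlap, and the vertical mark is the median of the list. Solute carriers (median -0.24) and calcium channels (median -0.39) lie mostly below 0, and no point passed the test.

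GSC, a factor of the gastrula organizer, was at -3.81 and -4.38 in ES cells and between -5.11 and -4.04 in iPS cells, with overlap (-0.66 ± 0.26, adjusted p = 0.457). BMP2, a growth factor, was at -2.53 and -1.3 in ES cells, at -3.38 and -3.56 in early and at -2.67 and -1.82 in late iPS cells, so that only the early arrays lay below both ES lines. PAX6, a neural factor, ranged from -5.65 to 0.06 over the 6 arrays and was not tested, because its only spot was marked as outlying on at least 1 of them.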

How the data were processed

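RNA was measured on 1-colour Agilent arrays with Cy3-labelled cRNA from total RNA, per the labels' protocols, with 1 array per sample. The deposited intensities, the linear brightness of each spot, came from Agilent Feature Extraction 10.5.1.1, per the file headers, which had subtracted background and applied no scaling between arrays. The authors' deposited value table was on a log2 scale. It matched the log2 intensities over the 75th percentile of each array, with each probe's median over all 8 arrays subtracted (correlation 0.9986 to 1 with the scanner values so treated; column medians -0.0416 to 0.342), and served as an alternative only; that match settled its scale, centring and direction.

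From the intensities, the log2 processed signal minus each array's 75th percentile was computed over 43603 non-control probes, averaging the 5 spots of each of 50 probes. A total of 33 probes with outlier marks on the 6 arrays were left out, and 27749 probes well above background on both arrays of at least 1 of the 3 groups were tested. Fits used limma 3.58.1 in R 4.3.3, with a threshold of 0.05 on the two-sided Benjamini-Hochberg adjusted p over all tested probes. The fit code was tried on simulated probes well above background on all 6 arrays, with a small fixed spread and large changes. That trial checked the code only, not how many differences can be found in these data. iPS lines were averaged over passages for the comparison with ES lines; early, late and ES arrays formed 3 groups of 2 for the comparisons by passage. Arrays of the same line were paired by the line names in the labels. The correlation of line within the fit was -0.0605, so arrays of a line were no more alike than others of their group.

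Symbols were found for 1933 probes of 680 genes through accessions in a RefSeq table of the assembly mOryCun1.1, used only for names; 41571 probes stayed unnamed. A gene is shown by its probe with the highest mean level over the 6 arrays. Named genes were the 12 highest and 12 lowest by the moderated statistic, since none held at both passages, up to 4 members of each list, those past the threshold at 1 passage only, and a few fixed genes; genes 2-fold apart at both passages were named because few met that count. The members and lists were chosen with earlier results of these data known. Alternatives changed the scaling, the background correction (normexp with offset 50 on the median signals, because the mean signals are not used here), the filter, the variance prior, the samples and the blocks.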

Additional observations from a re-analysis of the deposited data

Results flagged for a closer look

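The difference from ES cells changed with passage at 8 probes by the test of late minus early iPS cells (limma, adjusted p under 0.05), where 3249 had an unadjusted p under 0.05. Among them were DCN, which was 4.04 higher late on the log2 scale, VCAM1, which was 4.05 higher, and a probe of CAV1 with a difference of -3.4. At all 8 probes 1 passage was not well above background on either array, so these values are set against signals at background and the bounds are at least 3.37-fold for DCN, at least 3.42-fold for VCAM1 and at least 2.22-fold for CAV1. The called probes of DCN, VCAM1 and CAV1 were tested only through the passage where they were high. With probes well above background on all 6 arrays 0 passed (2965 with an unadjusted p under 0.05), and with normexp 1 of the 8 did. Pairing the passages of each line left 0 of the 8 calls (smallest adjusted p = 0.107), and the scan day as a block also left 0 (smallest adjusted p = 0.0509). Without the early iPS-L1 array 3 probes passed, 2 of them among the 8, and without the early iPS-S1 array 8 passed, 5 of them among the original 8, while no probe passed without any 1 of the other 4 arrays.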

How the results depend on the processing

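Counts of called probes depended on most choices. Of 119 named genes, 90 kept their sign in every alternative and 29 changed it in at least 1. Many of these genes were named for a large moderated statistic in these same data. Several alternatives also change only the test or the filter and leave the difference itself as it was. The count of kept signs is therefore no measure of steadiness. Quantile normalization left 1 late call and 5 calls for late minus early. Without scaling, 94 probes passed between iPS and ES line means (52 higher, 42 lower), with 46 early, 8 late, 14 for late minus early and 6 held at both passages. With normexp the counts were 22 for line means, 120 early, 0 late (2113 with an unadjusted p under 0.05) and 61 for late minus early. Of these, 8 of the 120 were among the 22 early calls and 1 of the 61 among the 8 of late minus early. DCN late went from 4.15 to 0.49 (adjusted p = 0.468) and probe A_04_P056717 early from -4.45 to -0.84 (adjusted p = 0.061). The offset of 50 added to each signal shrinks differences of dim probes by construction. Only without scaling and with normexp, of the settings run, did any named gene pass in line means: ACTA2, ANKRD1, CAV1, DCN, FMO1, PON3 and VCAM1 without scaling, and ANKRD1 and CAV1 also with normexp. With all probes, 0 passed early, late and for late minus early (4410, 3251 and 3334 unadjusted). With probes well above background on all 6 arrays, 6 passed early, 0 late and 0 for late minus early (2464 and 2965 unadjusted). With the somatic arrays in the fit 7 passed late, and with a mean-variance trend 0 (2683 unadjusted). With slide as a block 0 passed early, late and for late minus early (4720, 4127 and 4582 unadjusted), and likewise 0 with the scan day as a block, added after seeing the data (5391, 3502 and 4234 unadjusted); slide as a block left no residual degrees of freedom for line means. With the line as a random replicate block, the iPS arrays were fitted without averaging over passages, and 6 probes passed against ES cells, all lower. As the correlation of line was -0.0605, the 2 passages of a line counted there as separate replicates. The line as a fixed replicate block gave 0 for late minus early (4582 unadjusted). For late minus early this was the same comparison as slide as a block, since both arrays of each iPS line shared a slide. In the fit with slide as a block, rdES2-1 was the only array on its slide. The differences from ES cells then rested on rdES4 alone, so that setting could hardly pass a probe. Leaving out 1 array, or 1 iPS line, gave 0 for line means (1957 to 4172 unadjusted), 0 to 6 early, 0 to 5 late and 0 to 8 for late minus early; a lone array was then assumed to vary like the other groups. With 2 lines a side, a difference that did not pass is not shown to be absent.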

Other observations

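Pairs of differences that share no array were set side by side over the 27749 tested probes. The difference of early iPS-L1 from rdES4 and that of early iPS-S1 from rdES2-1 had a correlation of 0.475, and the late ones 0.335. Early iPS-L1 with late iPS-S1 gave 0.239, and late iPS-L1 with early iPS-S1 gave 0.0828. With the ES lines exchanged the same 4 pairs gave 0.333, 0.221, -0.104 and 0.301. These are correlations across probes, which are not independent replicates; the pairs of rdES4 with iPS-L1 share a slide and those of rdES2-1 with iPS-S1 a scan day.

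ANKRD1, a nuclear protein of stretched muscle and epithelium, had levels of -0.79 and -0.59 in ES cells, of 1.51 and 0.5 in early and of -0.53 and 0.71 in late iPS-L1 and iPS-S1. The late iPS-L1 array lay just above the ES lines and the other 3 iPS arrays lay further above them, with a difference of 1.24 ± 0.14 over line means (adjusted p = 0.288). This SE does not include the spread between passages, since the iPS-L1 levels of 1.51 and -0.53 were averaged first. ETS1, a transcription factor, was at -5.99 and -6.27 in ES cells, at -4.86 and -3.72 in early and at -5.54 and -4.93 in late iPS cells, with neither ES line well above background. EMP1, an epithelial membrane protein, had differences of 2.75 early and 0.41 late by its brightest probe, and of up to 2.07 late by another. PLN (phospholamban), CNTF (a neurotrophic factor) and OVGP1 (an oviduct glycoprotein) were dim and below both ES arrays on all iPS arrays, with differences of -0.8, -0.79 and -0.84 and an adjusted p of 0.299 each.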
